A study of Mus musculus with 12 samples.

Results

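The microRNAs (miRNAs) of induced pluripotent stem cells (iPSCs) were compared with those of the mouse embryonic fibroblasts (MEFs) from which the cells were made, across every miRNA seen in 2 or more of the 5 libraries concerned. That rule kept 861 of the 1042 miRNAs in the table. MEFs were sequenced in 3 libraries (replicates 13, 14 and 15) and iPSCs in 2 (replicates 62 and 63). The MEFs were of strain C57B6/129SvJae F1, and the iPSCs were 1 line of the same strain, made by infecting those MEFs with a lentivirus that expressed c-Myc, Klf4, Oct4 and Sox2 under doxycycline control. The iPSCs grew with LIF on irradiated MEF feeder cells whereas MEFs grew in a fibroblast medium for which no LIF is listed, so culture conditions moved with the group. Replicates were batches of RNA from 1 line each, and p-values therefore measured the spread between batches. Values were also set beside 3 libraries of embryonic stem cells (ESCs, line E14, strain 129/ola) and 2 libraries of pluripotent cells derived from the same MEFs by nuclear transfer (NT-ESCs). NT-iPSCs, with 2 libraries, were made by nuclear transfer from an iPSC and so trace back to the same MEFs through iPSCs. They entered the fit and the comparison of arms.

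A miRNA is cut from 1 arm of a hairpin, and the seed, bases 2 to 8 from its 5′ end, sets which messages it can pair with. The 5p and 3p names give the arm. miRNAs of the miR-290 and miR-302 clusters are abundant in pluripotent mouse cells and promote the passage from G1 to S phase. The let-7 family accumulates as cells differentiate and is held low in pluripotent cells by Lin28, which blocks maturation of its precursors. Fibroblasts are known for miR-21, miR-143, miR-145 and miR-199a, and miRNAs inside the Hox clusters follow the position of a cell along the body axis. In bulk RNA, fewer cells of a type and less RNA per cell cannot be told apart.

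Mature sequences are given for the miRNAs the comparison turns on, as RefSeq lists them on GRCm38.p6, with the seed in capitals. Of the 861 miRNAs, 658 matched a RefSeq entry by name. The first set carries the seed AAGUGCU of the miR-290 and miR-302 clusters and, for miR-293-3p, a different one.
miR-294-3p: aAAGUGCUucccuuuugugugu
miR-295-3p: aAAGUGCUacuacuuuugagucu
miR-302d-3p: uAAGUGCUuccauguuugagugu
miR-293-3p: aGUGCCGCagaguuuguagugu

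The second set holds miRNAs of the miR-17 family of clusters, with the seed AUUGCAC in the first 3 and AAAGUGC in the last 2.
miR-25-3p: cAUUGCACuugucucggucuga
miR-92a-3p: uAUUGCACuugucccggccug
miR-363-3p: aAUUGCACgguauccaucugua
miR-17-5p: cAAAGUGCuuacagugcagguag
miR-20b-5p: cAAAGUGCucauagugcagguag

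The third set holds miRNAs that were high in MEFs, with the shared seeds of let-7 and of miR-196.
let-7a-5p: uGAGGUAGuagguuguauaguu
let-7f-5p: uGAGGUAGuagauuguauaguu
miR-196a-5p: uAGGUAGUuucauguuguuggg
miR-196b-5p: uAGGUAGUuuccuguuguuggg
miR-10b-5p: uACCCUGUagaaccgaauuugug
miR-100-5p: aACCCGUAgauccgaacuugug
miR-206-3p: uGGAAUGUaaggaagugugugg

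The last set holds miRNAs of hairpins whose 2 arms changed by different amounts, and miR-379-5p of the imprinted Dlk1-Dio3 region.
miR-379-5p: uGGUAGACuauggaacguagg
miR-381-3p: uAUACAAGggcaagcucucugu
miR-140-3p: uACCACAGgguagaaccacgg
miR-376a-3p: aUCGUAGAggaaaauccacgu
miR-222-3p: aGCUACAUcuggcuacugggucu

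On GRCm38.p6, miR-293-3p, miR-294-3p and miR-295-3p lay close together on the plus strand of chromosome 7, at chr7:3220390-3220411, chr7:3220691-3220712 and chr7:3220815-3220837, in no annotated host gene. miR-302d-3p lay at chr3:127545665-127545687, also in no host gene on its strand. miR-25-3p, at chr5:138165332-138165353, overlapped an annotated exon of Mcm7, which encodes a subunit of the replicative helicase. miR-17-5p (chr14:115043684-115043706) and the first copy of miR-92a-3p (chr14:115044476-115044496) lay in an exon of the noncoding host gene Mir17hg, whereas miR-363-3p (chrX:52741697-52741718) and miR-20b-5p (chrX:52742159-52742181) lay in no host gene on the X chromosome. miR-196b-5p (chr6:52230129-52230150) overlapped an annotated exon of Hoxa9, and miR-10b-5p (chr2:74726074-74726096) lay in introns of Hoxd3 and Hoxd4. miR-206-3p, at chr1:20679055-20679076, lay in an exon of the noncoding gene Gm28653. miR-140-3p, at chr8:107551288-107551308, overlapped an annotated exon of Wwp2, a ubiquitin ligase gene. miR-379-5p, miR-376a-3p and miR-381-3p stood on the plus strand of chromosome 12, at chr12:109709065-109709085, chr12:109723824-109723844 and chr12:109726870-109726891.

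Between iPSCs and MEFs most of the measured miRNA repertoire differed. Each value is the authors' variance stabilized read count, which is close to a log2 scale at high counts, and a difference is iPSC minus MEF on that scale. A miRNA was tested if 2 or more of the 12 libraries held 10 reads of it, which left 732, with 729 of them among the 861. Of the 732, 643 (87.8%) passed an adjusted p of 0.05, all of them among the 861. iPSCs were higher for 356 (48.6%) and lower for 287 (39.2%). The 2 groups did not overlap for 640 of the 643, which a call almost requires, and 603 differed by at least 1. The other 132 of the 861 were too low to test, and 86 were tested and did not pass. Among the 729, 152 reached 10 reads in an iPSC library but in no MEF library, 65 in a MEF library but in no iPSC library, 490 in both and 22 in neither. A miRNA that passed through 1 group alone had to differ.

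The libraries held 7867514 to 8608689 miRNA reads in MEFs and 5293867 to 6088839 in iPSCs. MEFs had 526 to 528 miRNAs with at least 10 reads and iPSCs 629 to 631. The 10 most abundant miRNAs took 68.7 to 69.9% of a MEF library and 42.1 to 42.9% of an iPSC library, so the choice of scaling mattered. Against the deposited size factors, scaling by total miRNA reads shifted the scale by 1.31 (less for miRNAs with few reads), a TMM-type scaling by 0.35 and upper quartile scaling by -0.02. With total reads the split of the 624 calls became 425 higher and 199 lower, against 356 and 287 with the deposited factors. Under all 4 scalings 353 miRNAs stayed higher and called (48.2% of those tested) and 199 lower (27.2%). Differences of single miRNAs between iPSCs and MEFs given below passed under all 4 scalings unless stated. Those against NT-ESCs or ESCs, and ESC minus MEF, were taken with the deposited factors alone. Counts by list are with the deposited factors, to be read against the 48.6% of all tested miRNAs that were higher and the 39.2% that were lower. CPM is the reads of a miRNA per 1000000 miRNA reads of its library, so CPM moves with the total-read scaling. Values of single libraries are given in the order MEF 13, 14 and 15, then iPSC 62 and 63.

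**Figure D1:**
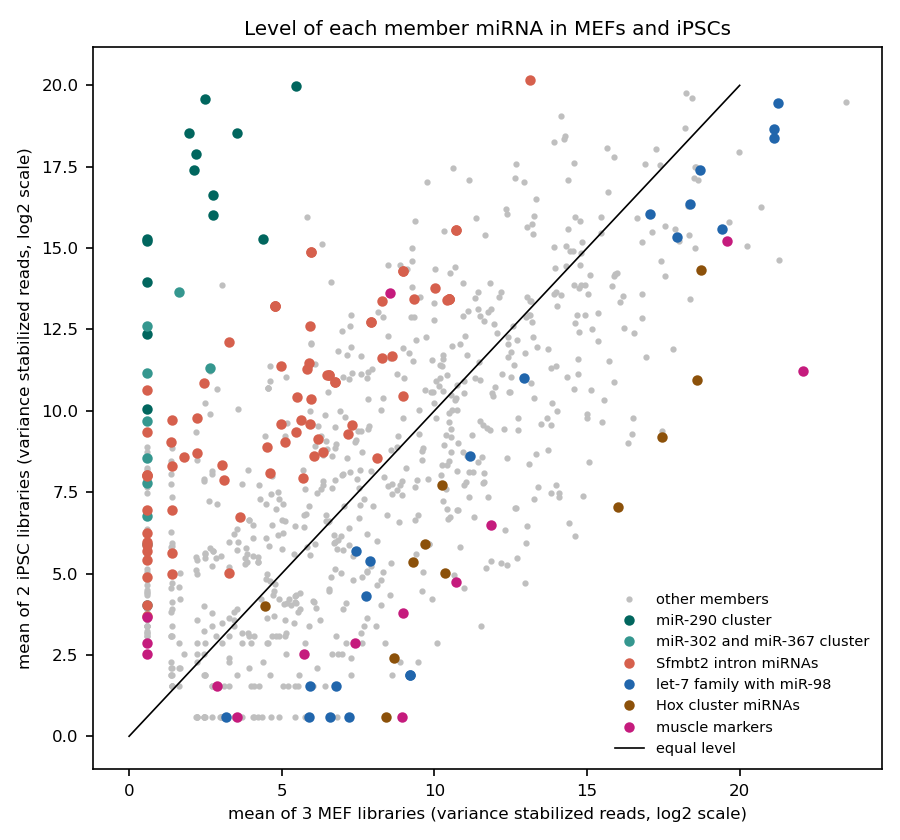
Mean level of each of the 861 miRNAs in 3 MEF libraries (horizontal axis) and 2 iPSC libraries (vertical axis), in variance stabilized reads on a log2 scale; the line marks equal levels. The miR-290 and miR-302 clusters and the Sfmbt2 intron miRNAs lie above the line, and the let-7 family, the Hox cluster miRNAs and most muscle markers lie below it.

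One property of the libraries bears on all of these values. The 2 arms of a hairpin come from 1 precursor, and where both are well measured the balance between them needs no scaling between libraries. Among 229 hairpins whose arms together had 20 or more reads in all 12 libraries, the ratio of 5p to 3p reads differed between iPSCs and MEFs for 174 (76.0%), toward 5p for 70 and toward 3p for 104. The median size of the change was 2.53 on the log2 scale, a factor of 5.79, and 96 hairpins changed by at least 3. Between ESCs and MEFs 52 of the same 229 (22.7%) passed, the median size was 0.60 and 4 changed by at least 3. Between iPSCs and NT-ESCs 0 passed (limma, 33 at an unadjusted p of 0.05), with a median size of 0.43, and between iPSCs and NT-iPSCs 1 passed, with a median size of 0.45. An arm with few or 0 reads makes the ratio follow the pseudocount of 0.5 reads and the depth of the other arm, and 3 of the 174 had an arm with 0 reads in all 12 libraries and 3 more in all 5 MEF and iPSC libraries. The test was therefore repeated, after the data were seen, on the 108 hairpins with 10 or more reads of each arm in every library. Of these, 86 (79.6%) passed between iPSCs and MEFs, 33 toward 5p and 53 toward 3p, with a median size of 2.14. Between ESCs and MEFs 37 (34.3%) passed, with a median size of 0.50, between iPSCs and ESCs 87 (80.6%), with a median size of 2.25, and between iPSCs and NT-ESCs 2 (1.85%) passed, with a median size of 0.37. The arm balance thus set the 6 libraries of iPSCs, NT-ESCs and NT-iPSCs apart from the 6 of MEFs and ESCs. The labels do not say which libraries were prepared or sequenced together. The read statistics in the supplement of the study also divide the libraries into these sets, with more raw reads and smaller shares of reads without a 3′ adaptor or without an insert in the iPSC, NT-ESC and NT-iPSC libraries. A difference between such sets and a difference between the cells cannot be told apart. For this reason ESC minus MEF is given beside many of the values below. It shares the MEF libraries with iPSC minus MEF.

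**Figure D2:**
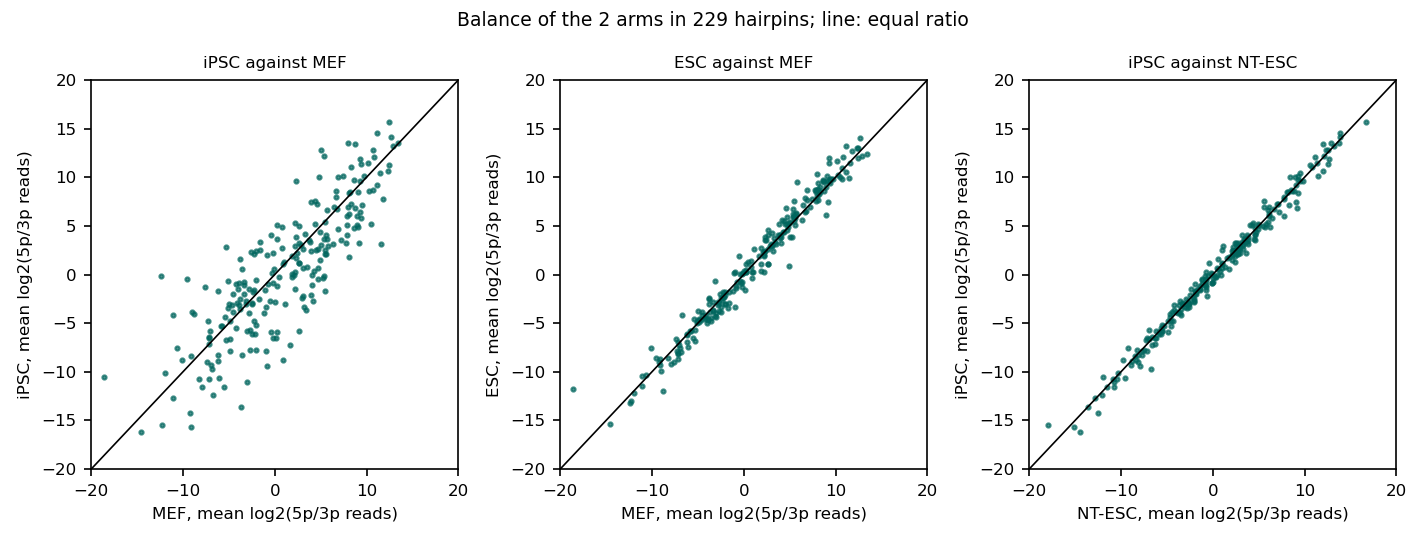
Mean log2 ratio of 5p to 3p reads for 229 hairpins, each point 1 hairpin: iPSC against MEF (left), ESC against MEF (middle) and iPSC against NT-ESC (right); the line marks an equal ratio, and an arm with 0 reads is placed by the pseudocount of 0.5 reads. The median distance between the groups was 2.53 for iPSC and MEF, 0.60 for ESC and MEF, and 0.43 for iPSC and NT-ESC.

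The hairpins with the largest changes show the size of this shift. Of the miR-140 hairpin, which lies in Wwp2, the 5p arm made up 6.69, 8.61 and 7.07% of reads in MEFs, 6.28, 6.99 and 5.63% in ESCs and 0.00898 and 0.00655% in iPSCs. The log2 ratio changed by -10.0 ± 0.27 (SE), adjusted p = 2.5e-10 between iPSCs and MEFs, and by -0.26 between ESCs and MEFs. Both mature forms were abundant enough to be followed singly: miR-140-5p stood at 508, 622 and 557 CPM in MEFs and 4.16 and 3.45 in iPSCs, a difference of -8.46 ± 0.17 (SE), adjusted p = 4.5e-12. By contrast miR-140-3p stood at 7076, 6599 and 7316 CPM in MEFs and 46254 and 52669 in iPSCs, a difference of 1.51 ± 0.16 (SE), adjusted p = 3.5e-06, and it was among the 10 most abundant miRNAs of iPSCs. The groups did not overlap for either arm, and the 2 arms moved in opposite directions.

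Arms also parted in the Dlk1-Dio3 hairpins miR-376a and miR-376b. The 5p arm of miR-376a made up 60, 68.5 and 66.3% of reads in MEFs, 52.8, 56 and 52.9% in ESCs and 0.261 and 0.193% in iPSCs, a change of -9.67 ± 0.30 (SE), adjusted p = 5.7e-10. For miR-376b it made up 85.3, 86 and 88% of reads in MEFs, 69.3, 66.6 and 67% in ESCs and 1.28 and 2.51% in iPSCs, a change of -8.44 ± 0.31 (SE), adjusted p = 1.1e-09. In both the leading arm was 5p in MEFs and ESCs and 3p in iPSCs. Of miR-222, whose 3p arm targets the cell cycle inhibitor p27, the 5p arm made up 37.7, 39.7 and 29.8% of reads in MEFs, 30.6, 32.5 and 26.8% in ESCs and 0.166 and 0.122% in iPSCs, a change of -8.57 ± 0.35 (SE), adjusted p = 2.1e-09. Of miR-29a, whose 3p arm targets collagen genes, it made up 10.8, 11 and 10.9% of reads in MEFs, 4.16, 3.67 and 5.93% in ESCs and 0.0486 and 0.0436% in iPSCs, a change of -8.03 ± 0.26 (SE), adjusted p = 6.9e-10. For these 4 hairpins ESC minus MEF lay between -1.61 and -0.37.

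Toward 5p, miR-381 of the Dlk1-Dio3 region changed most, by 12.22 ± 0.89 (SE), adjusted p = 2.8e-07. Its 5p arm made up 0.00696, 0.0393 and 0.0184% of reads in MEFs, 0.0137, 0.0218 and 0% in ESCs and 43.3 and 51.6% in iPSCs. The 5p arm of miR-301a made up 2.62, 2.43 and 2.18% of reads in MEFs, 0.497, 1.58 and 0.635% in ESCs and 77.5 and 93.6% in iPSCs, a change of 8.1 ± 0.60 (SE), adjusted p = 3.2e-07, and its leading arm switched. The 5p arm of miR-340 made up 96.4, 97.1 and 97.5% of reads in MEFs, 97.1, 97.6 and 98.3% in ESCs and 99.96 and 100% in iPSCs, and that of miR-503 made up 83.6, 83.3 and 82% of reads in MEFs, 90.8, 92.2 and 93.4% in ESCs and 99.9 and 99.9% in iPSCs, changes of 7.76 and 7.34. The 3p arm of miR-340 had 0 reads in iPSC 63, so the size of its change rests in part on the pseudocount. The hairpins miR-381, miR-301a, miR-340 and miR-503 had under 10 reads of 1 arm in at least 1 library and are not among the 108, whereas miR-140, miR-376a, miR-376b, miR-222 and miR-29a are. The ratio of miR-206 also passed the test, but its 5p arm had 0 reads in both iPSC libraries, so the fitted value of that change depends on the pseudocount and is not read further. In all, the leading arm of 37 of the 229 hairpins differed between iPSCs and MEFs, of 8 between ESCs and MEFs and of 9 between iPSCs and NT-ESCs.

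**Figure D3:**
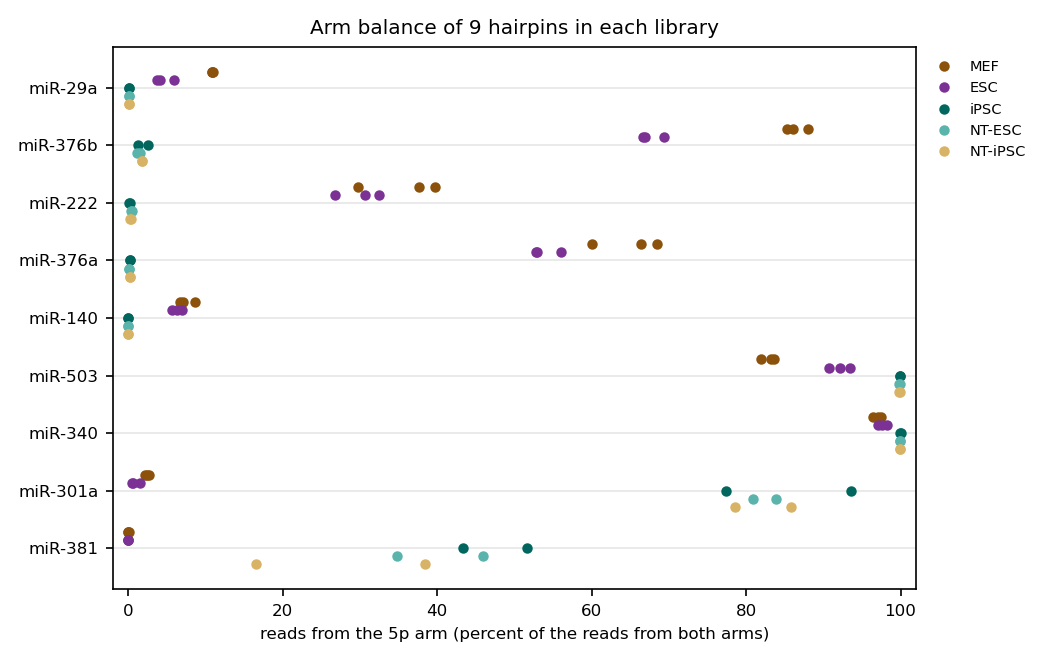
Percent of reads from the 5p arm in each library for 9 hairpins with large changes of the ratio; each point is 1 library of MEFs, ESCs, iPSCs, NT-ESCs or NT-iPSCs. For miR-140, miR-222 and miR-29a the iPSC points lie below 1% and the MEF points above 5%.

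Counting both arms of each hairpin in the test of levels, 263 hairpins had both arms tested and 210 had both called. Of the 210, both arms were higher in iPSCs for 98, both lower for 67 and the arms went opposite ways for 45. Under all 4 scalings the numbers were 97, 37 and 23 of 157. In the miR-290 cluster 7 of 7 hairpins had both arms higher, in the miR-302 cluster 4 of 4, among the Sfmbt2 intron miRNAs 31 of 32, and in the let-7 family 6 of 6 had both lower with the deposited factors. Median differences also varied with the last base of the mature sequence. Among 547 tested members with a RefSeq sequence, the 111 ending in A had a median difference of 1.36, the 203 ending in U one of 0.25, and those ending in C (114) or G (119) one of -0.80 and -0.77. Calls went both ways for each base, with 64 higher and 36 lower for A, 93 and 83 for U, 37 and 57 for C and 40 and 61 for G. Near-identical copies and members of 1 family were each counted, and the part of families in these medians was not tested. The medians of ESC minus MEF for A, U, C and G were 0.52, -0.43, -0.59 and -0.41, and those of iPSC minus NT-ESC lay between 0.04 and 0.18. The part of this in any single difference was not tested.

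Of the 10 most abundant miRNAs of MEFs, 7 were not among the 10 of iPSCs. The 10 leading miRNAs of MEFs were miR-21-5p, miR-206-3p, miR-143-3p, let-7f-5p, let-7c-5p, let-7a-5p, miR-379-5p, miR-378-3p, miR-541-5p and miR-99b-5p. Together they made up 68.7 to 69.7% of the MEF reads and 13.9 to 15.8% of the iPSC reads. Those of iPSCs were miR-669c-5p, miR-293-3p, miR-140-3p, miR-290-5p, miR-103-3p, miR-21-5p, let-7f-5p, miR-25-3p, miR-127-3p and let-7a-5p, and 3 miRNAs stood in both lists. miR-21-5p, which is widely expressed and abundant in fibroblasts, took 26.9, 27.4 and 25% of MEF reads and 4.62 and 3.63% of iPSC reads, and differed by -4.0 ± 0.17 (SE), adjusted p = 1.1e-09 (ESC minus MEF -2.18). miR-206-3p, a skeletal muscle miRNA, took 10.7, 8.81 and 10.5% of MEF reads and 0.0141 and 0.0124% of iPSC reads. miR-669c-5p, from the Sfmbt2 intron, took 0.0162, 0.0213 and 0.0231% of MEF reads and 7.72 and 5.58% of iPSC reads, and miR-293-3p took 0.000302, 6.36e-05 and 3.72e-05% of MEF reads and 5.17 and 6.38% of iPSC reads. miR-103-3p took 0.84, 0.68 and 0.90% of MEF reads and 4.18 and 4.67% of iPSC reads, a difference of 1.15 ± 0.19 (SE), adjusted p = 0.00013. Of the miRNAs in the 2 lists 1 did not pass the test, miR-127-3p of the Dlk1-Dio3 region, with 9529, 5523 and 6026 CPM in MEFs and 20017 and 27344 in iPSCs and a difference of 0.47 ± 0.29 (SE), adjusted p = 0.15. Without MEF 13 its difference was 0.77 and passed (adjusted p = 0.0078), and with total reads it was 1.78.

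**Figure D4:**
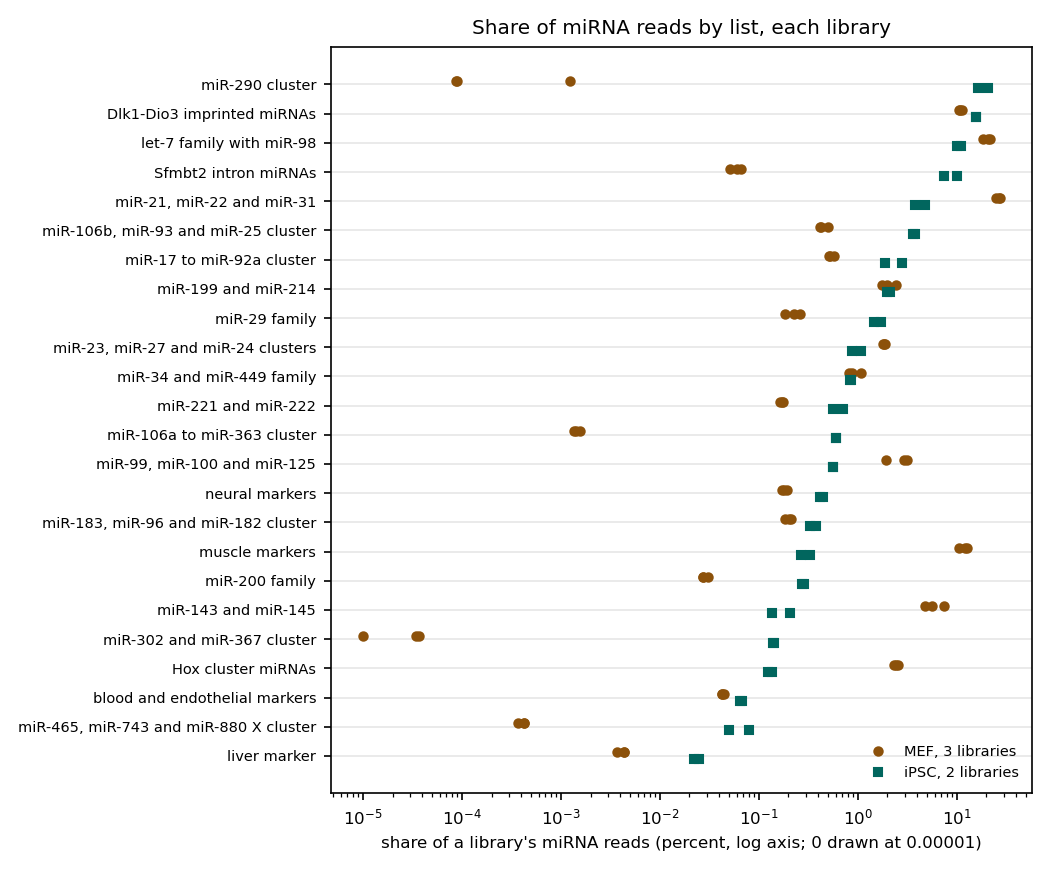
Share of a library's miRNA reads taken by each of 24 lists of miRNAs, in percent on a log axis; circles are the 3 MEF libraries and squares the 2 iPSC libraries, and a share of 0 is drawn at 0.00001. The shares did not overlap between the groups for 22 lists, with the miR-290 cluster furthest apart. Of all 732 tested miRNAs, 640 passed with no overlap of levels between the groups, so a lack of overlap is not particular to the lists.

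The pluripotency clusters, which serve as markers of the labelled cell type, were at traces in MEFs and higher in iPSCs. All 14 tested miRNAs of the miR-290 cluster were higher in iPSCs (background 48.6%), with differences from 9.46 to 17.11 and a median of 14.58 against 0.46 over all 732. The cluster took 0.00125, 8.90e-05 and 8.69e-05% of the miRNA reads in the MEF libraries and 16.4 and 20.7% in the iPSC libraries. With so few MEF reads, members passed the read filter through pluripotent libraries alone. The direction of the 14 was thus all but fixed, and their count adds no evidence beside the background. The 10 largest increases among miRNAs that had 100 or more reads in both iPSC libraries all belonged to it. miR-290-5p had 2, 0 and 1 reads in MEFs and 192186 and 323161 in iPSCs; pooled over each group, its share was 370203 times that in MEFs, with a 95% exact interval of 126676 to 1795150.0 for counting error alone. miR-294-3p, which carries the seed AAGUGCU, had 4, 0 and 0 reads in MEFs and 94367 and 153101 in iPSCs, a difference of 16.59 ± 0.95 (SE), adjusted p = 1.5e-08. miR-295-3p, with the same seed, had 22, 1 and 0 reads in MEFs and 97774 and 146227 in iPSCs. miR-293-3p, the most abundant of the cluster, had 26, 5 and 3 reads in MEFs and 273942 and 388482 in iPSCs, a difference of 14.52 ± 0.64 (SE), adjusted p = 1.6e-09.

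The few MEF reads of the cluster were mostly in 1 library, MEF 13, whose share was 0.00125% against 8.90e-05% and 8.69e-05% in the others. For the whole cluster, 5 miRNAs had 0 reads in all 3 MEF libraries. With 3 reads in a library as the floor, miR-294-5p was at least 5877-fold, miR-295-5p at least 5609.9-fold and miR-291b-5p at least 2331-fold higher in iPSCs in CPM. With such miRNAs at their bound, the median log2 fold of the cluster was 13.53, against 1.76 over all tested miRNAs. ESC minus MEF had a median of 13.68. miR-294-5p was higher in iPSCs than in ESCs, by 4.43 (adjusted p = 1.4e-09), and miR-291a-3p, singled out after its values were seen, was lower, by -3.35 (adjusted p = 0.0012).

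The miR-302 and miR-367 cluster rose from almost nothing to a small share. All 9 tested members were higher in iPSCs, with a median difference of 8.66, and 7 of the 9 had 0 reads in every MEF library. They passed the read filter through pluripotent libraries alone, so their direction against MEFs was all but fixed. The cluster took 0.141 and 0.144% of the iPSC reads, far below the miR-290 cluster. miR-302a-5p had 0, 0 and 2 reads in MEFs and 3696 and 4484 in iPSCs, and miR-302d-3p had 0, 0 and 0 reads in MEFs and 1682 and 2291 in iPSCs, which made it at least 910.0-fold higher. Against NT-ESCs, all 9 tested members stood higher in iPSCs, 5 of them past the threshold, whereas 13.1% of all tested miRNAs were called higher in that comparison. miR-302d-3p differed from NT-ESCs by 2.33 (adjusted p = 0.00051) and miR-302a-3p by 2.4 (adjusted p = 0.00041). The 5 members of the seed AAGUGCU with a RefSeq sequence together took 3.91 and 5.17% of the iPSC reads.

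Of the 3 related clusters of the miR-17 family, known for promoting proliferation, 1 rose throughout and in the other 2 members went both ways. Of the 12 tested miRNAs of the miR-17 to miR-92a cluster on chromosome 14, 3 were higher, 7 lower and 2 did not pass. Under all 4 scalings 3 were higher and 6 lower, and the median difference of -1.66 became -0.35 with total reads. miR-92a-3p rose 44.9-fold in CPM, from 335, 576 and 453 CPM in MEFs to 24898 and 15943 in iPSCs, a difference of 4.18 ± 0.22 (SE), adjusted p = 5.6e-09. miR-92a-3p has 2 loci, in this cluster and in the X-linked one described next, and its reads cannot be assigned to either. miR-20a-5p fell, with 2235, 2202 and 1927 CPM in MEFs and 461 and 197 in iPSCs, a difference of -4.12 ± 0.25 (SE), adjusted p = 2.5e-08. miR-17-5p fell by 2.74 and miR-18a-5p by 3.29. ESC minus MEF of these 4 was 0.96, 1.2, 1.0 and 0.78. Between iPSCs and ESCs miR-17-5p differed by -3.74 (adjusted p = 1.2e-09).

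In the cluster from miR-106a to miR-363 on the X chromosome, a copy of the first, all 10 tested members were higher in iPSCs, with a median of 7.39. Of the 10, 4 had 0 reads in every MEF library and could not be lower. miR-363-5p had 8, 9 and 13 reads in MEFs and 17645 and 23112 in iPSCs (10.15 ± 0.22 (SE), adjusted p = 7.4e-12). miR-20b-5p, which shares the seed AAAGUGC with miR-17-5p, had 53, 62 and 61 reads in MEFs and 2528 and 2212 in iPSCs (4.54 ± 0.15 (SE), adjusted p = 2.0e-10). ESC minus MEF was 8.3 for miR-20b-5p and 7.95 for miR-363-3p, whose iPSC minus MEF was 7.37. The cluster took 0.608 and 0.609% of the iPSC reads and at most 0.00156% of a MEF library.

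In the cluster of miR-106b, miR-93 and miR-25, which lies within Mcm7, 3 of 6 were higher (50%) and 2 lower (33.3%), near the 48.6% and 39.2% of all tested miRNAs. miR-25-3p, with the seed AUUGCAC of miR-92a-3p, stood at 472, 368 and 400.4 CPM in MEFs and 31677 and 29064 in iPSCs, a difference of 4.89 ± 0.20 (SE), adjusted p = 7.1e-10. miR-93-5p stood at 3586, 2979 and 3089 CPM in MEFs and 2653 and 2488 in iPSCs, a difference of -1.63 ± 0.18 (SE), adjusted p = 4.7e-06 and with total reads of -0.32 (adjusted p = 0.068), and miR-106b-5p differed by -1.09 with the deposited factors and by 0.22 with total reads (adjusted p = 0.2). With total reads neither lower member of this cluster passed. The 6 members with the seed AUUGCAC took 0.086, 0.10 and 0.091% of the MEF reads and 5.92 and 4.69% of the iPSC reads, with 5 higher and 1 lower. ESC minus MEF of miR-25-3p was 0.81.

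The large repeat-derived cluster in an intron of Sfmbt2, a gene active in the early embryo and placenta, rose as a block. Of its 73 tested members, 72 were higher in iPSCs and 1 did not pass, with a median difference of 4.82. Of the 73, 11 had 0 reads in every MEF library and could not be lower. The cluster took 0.0511, 0.0605 and 0.0659% of the miRNA reads in the MEF libraries and 10.1 and 7.54% in the iPSC libraries. miR-669c-5p stood at 162, 213 and 231 CPM in MEFs and 77206 and 55771 in iPSCs, a difference of 7.05 ± 0.19 (SE), adjusted p = 3.0e-11, and it was the most abundant miRNA of the iPSCs. miR-467a-3p had 15, 5 and 17 reads in MEFs and 9843 and 9326 in iPSCs. miR-467a-5p had 318, 305 and 292 reads in MEFs and 15084 and 15174 in iPSCs, and miR-467b-5p had the same counts but for 1 read. Reads of near-identical copies cannot be told apart, so members of this cluster are not independent of each other. ESC minus MEF had a median of 2.51 and was 2.34 for miR-669c-5p. Against NT-ESCs 60 of 73 stood higher, where 54.6% of all tested did, and 4 passed as higher, where 13.1% of all tested did.

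The X-linked cluster of miR-465, miR-743 and miR-880, known from testis, rose from traces to low levels. Of 26 tested members, 25 were higher and 1 did not pass, with a median difference of 5.33. The whole cluster took at most 0.00043% of a MEF library, and 9 of the 26 had 0 reads in every MEF library. Members with so few MEF reads could hardly be lower in iPSCs, so the count of 25 adds no evidence. miR-465a-3p had 3, 3 and 6 reads in MEFs and 611 and 453 in iPSCs, a difference of 6.14 ± 0.31 (SE), adjusted p = 4.3e-09, and miR-465b-3p and miR-465c-3p share its sequence. The cluster took at most 0.0791% of an iPSC library, and ESC minus MEF had a median of 8.26.

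Epithelial miRNAs rose in part. Of 12 tested miRNAs of the miR-200 family and its epithelial companions miR-203 and miR-205, 8 were higher, 1 lower and 3 did not pass. The lower one, miR-203-3p, did not pass with total reads (-0.18, adjusted p = 0.37). miR-200a-3p and miR-200b-3p, which repress the mesenchymal factors Zeb1 and Zeb2, rose by 5.27 and 3.54. miR-200a-3p stood at 10.8, 12.2 and 13.8 CPM in MEFs and 1128 and 1219 in iPSCs. miR-205-5p, of epithelia, stood at 1.86, 0.763 and 1.61 CPM in MEFs and 338 and 378 in iPSCs, a difference of 6.7 ± 0.36 (SE), adjusted p = 7.2e-09. miR-200c-3p and miR-141-3p, of the second cluster of the family, were singled out after their values were seen, and did not pass, with differences of 0.32 and -0.87, while their ESC minus MEF was 3.9 and 3.55. Of the cluster of miR-183, miR-96 and miR-182, 4 of 6 were higher and 1 lower. miR-182-5p stood at 1044, 1068 and 952 CPM in MEFs and 2560.1 and 2498 in iPSCs, and its difference was 0.00 with the deposited factors (adjusted p = 0.997) and 1.31 with total reads. miR-183-5p fell, with 775, 1039 and 1027 CPM in MEFs and 513 and 399 in iPSCs, and iPSCs were below ESCs by 8.09 (adjusted p = 3.1e-12). The cluster took 21% of ESC reads, 0.354% of iPSC reads and 0.20% of MEF reads.

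**Figure D5:**
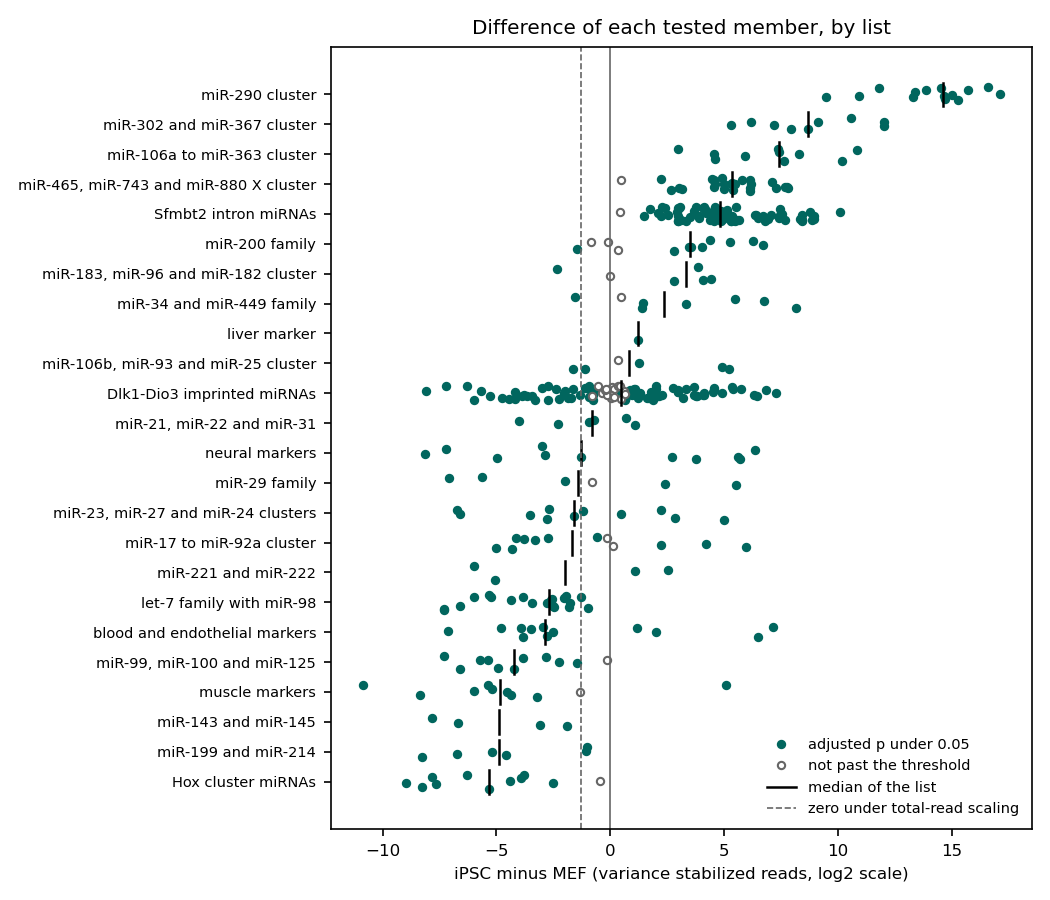
Difference iPSC minus MEF (horizontal axis, variance stabilized reads on a log2 scale) of each tested member of 24 lists; filled points passed an adjusted p of 0.05, open points did not, black bars are list medians and the dashed line is where 0 would lie under total-read scaling. The lists run from the miR-290 cluster, median 14.58, to the Hox cluster miRNAs, median -5.33.

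The let-7 family fell. All 20 tested members of let-7 and miR-98 were lower in iPSCs (background 39.2%), 16 of them under all 4 scalings, with a median difference of -2.68. The family nonetheless kept 11 and 10.1% of the iPSC reads, against 18.3, 20.6 and 21.8% in MEFs. Mean let-7 shares of the other pluripotent lines differed widely: ESCs 7.76%, NT-ESCs 26.9%, NT-iPSCs 33.6%. Both nuclear transfer lines had a mean share above that of every MEF library. A let-7 share below that of MEFs was therefore not common to all of the pluripotent lines. let-7f-5p stood at 53171, 57349 and 59427 CPM in MEFs and 41349.9 and 38722 in iPSCs, a difference of -1.81 ± 0.16 (SE), adjusted p = 5.4e-07. let-7c-5p stood at 47963, 51997 and 55146 CPM in MEFs and 20095 and 17653 in iPSCs and let-7a-5p at 44758, 52338 and 57822 CPM in MEFs and 23913 and 21851 in iPSCs. let-7b-5p, the next in abundance in MEFs, fell further, with 11304, 19405 and 17721 CPM in MEFs and 3029 and 2495 in iPSCs, a difference of -3.83 ± 0.22 (SE), adjusted p = 1.6e-08. The smallest differences among the 20, named after their values were seen, were those of let-7i-5p (-1.0) and let-7e-5p (-1.28), and with total reads they were 0.31 and 0.03 and did not pass (adjusted p = 0.23 and 0.86). Several let-7 members differ by 1 or 2 bases, and reads may have been shared among them. ESC minus MEF had a median of -2.91. Against NT-ESCs, 13 of 20 were lower in iPSCs past the threshold, whereas 12.6% of all tested were called lower, and let-7f-5p differed by -1.89 (adjusted p = 0.00012).

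Of miR-99, miR-100 and miR-125, which lie in clusters with let-7 members, 10 of 11 were lower, 9 under all 4 scalings, and 1 did not pass, with a median of -4.24. miR-100-5p stood at 1696, 1991 and 1909 CPM in MEFs and 33.1 and 24.8 in iPSCs, which is 64.5-fold lower, and differed by -7.32 ± 0.14 (SE), adjusted p = 3.7e-12. miR-99b-5p stood at 12230.4, 21792 and 22826 CPM in MEFs and 3324 and 3015 in iPSCs. miR-125b-5p fell by 2.83. miR-125a-5p passed with the deposited factors (-1.46) and was at -0.15 with total reads (adjusted p = 0.65). ESC minus MEF of miR-100-5p was -3.0.

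Of the 6 lists of miRNAs known from mesenchymal cells, 2 were lower throughout and 4 went both ways. All 4 tested miRNAs of miR-143 and miR-145 were lower, 3 of them under all 4 scalings, with a median of -4.88, and all 6 of miR-199 and miR-214 were lower, 4 under all scalings, with a median of -4.9. The share of miR-199 and miR-214 overlapped between the groups, at 2.42, 1.96 and 1.75% of the miRNA reads in the MEF libraries and 2.12 and 2.0% in the iPSC libraries. Its mean was higher in NT-ESCs (5.76%) and NT-iPSCs (6.29%) and lower in ESCs (0.37%). miR-143-3p, from a hairpin known in smooth muscle and fibroblasts, stood at 74418, 54988 and 46827 CPM in MEFs and 1702 and 1163 in iPSCs, a difference of -6.67 ± 0.24 (SE), adjusted p = 3.3e-10, whereas ESC minus MEF was -1.47. miR-145-3p fell by 7.84 and miR-145-5p by 3.1. miR-199a-5p stood at 1829.7, 2497 and 2000.0 CPM in MEFs and 54.6 and 42.9 in iPSCs, 43.3-fold lower, a difference of -6.74 ± 0.29 (SE), adjusted p = 1.4e-09. From the same hairpins miR-199a-3p stood at 10808, 8225 and 7333 CPM in MEFs and 10566 and 9942 in iPSCs. Its difference of -1.07 passed with the deposited factors (adjusted p = 0.00055) and was 0.24 with total reads, and the same sequence is also listed as miR-199b-3p. miR-214-3p and miR-214-5p fell by 5.21 and 8.26. In ESC minus MEF, miR-199a-5p and miR-199a-3p were at -3.44 and -3.4.

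Of the 6 miRNAs of miR-21, miR-22 and miR-31, 2 were higher and 4 lower, and under all 4 scalings 2 were higher and 1 lower. miR-22-3p and miR-31-5p, both common in fibroblasts, depended on the scaling, with differences of -0.94 and -0.71 that became 0.37 and 0.60 with total reads. Without iPSC 62 that of miR-31-5p did not pass (-0.51, adjusted p = 0.16). The arms of miR-221 and miR-222 went opposite ways: miR-221-3p stood at 859.9, 518 and 537 CPM in MEFs and 2691 and 3865 in iPSCs and miR-221-5p at 551, 798 and 884 CPM in MEFs and 53.1 and 53.7 in iPSCs, with differences of 1.07 and -5.08. miR-222-3p and miR-222-5p differed by 2.55 and -6.0. Without iPSC 63 the difference of miR-221-3p was 0.71 and did not pass (adjusted p = 0.087). ESC minus MEF of these 4 lay between -2.69 and -1.78. Of the 6 tested miRNAs of the miR-29 family 2 were higher, 3 lower and 1 did not pass. miR-29a-3p rose by 2.4 while miR-29a-5p fell by 5.62, and ESC minus MEF was -1.57 and -2.94. Of the clusters of miR-23, miR-27 and miR-24, 4 of 11 were higher and 7 lower, 5 of these under all scalings. miR-24-3p stood at 8332, 9787 and 7811 CPM in MEFs and 2131 and 1575 in iPSCs and fell by 3.54, and its cluster neighbour miR-23a-3p stood at 199.7, 205 and 243 CPM in MEFs and 2209.5 and 2776 in iPSCs and rose by 2.21.

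Of the miR-34 and miR-449 family, known for activation by p53 and for a role in multiciliated cells, 6 of 8 were higher, 1 was lower and 1 did not pass. miR-34c-5p, the most abundant, stood at 10695, 8730.2 and 8172 CPM in MEFs and 7645 and 7861 in iPSCs, with a difference of -1.55 that was -0.24 with total reads (adjusted p = 0.19). miR-449a-5p had 11, 9 and 11 reads in MEFs and 696 and 987 in iPSCs, a difference of 5.47 ± 0.28 (SE), adjusted p = 5.9e-09, and miR-449c-5p had 4, 4 and 4 reads in MEFs and 594 and 1181 in iPSCs, a difference of 6.75 ± 0.50 (SE), adjusted p = 1.3e-07. ESC minus MEF of these 2 was -0.25 and -0.64, and against NT-ESCs iPSCs were higher by 2.04 (adjusted p = 0.0011) and 2.18 (adjusted p = 0.014).

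The miRNAs of the Hox clusters fell together. Of 11 tested, 10 were lower in iPSCs under all 4 scalings and 1 did not pass, with a median of -5.33, and their share was 2.31, 2.45 and 2.57% of the miRNA reads in the MEF libraries and 0.136 and 0.125% in the iPSC libraries. miR-10b-5p stood at 3713, 3898 and 4596 CPM in MEFs and 37.4 and 28.4 in iPSCs, a difference of -8.26 ± 0.18 (SE), adjusted p = 7.4e-12. miR-196b-5p stood at 1727, 1284 and 1449 CPM in MEFs and 7.56 and 6.73 in iPSCs, 208-fold lower, a difference of -8.97 ± 0.19 (SE), adjusted p = 6.9e-12. miR-196a-5p stood at 8941, 8515 and 9487 CPM in MEFs and 118 and 101 in iPSCs, a difference of -7.67 ± 0.21 (SE), adjusted p = 3.4e-11. miR-10a-5p, with the seed of miR-10b-5p, stood at 8622, 10694 and 10085 CPM in MEFs and 1178 and 1094 in iPSCs, a difference of -4.41. iPSCs also stood below ESCs in miR-196a-5p, by 6.92 (adjusted p = 4.6e-10). The ESC mean was 9995 CPM against 8981 in MEFs and 249 in NT-ESCs. ESC minus MEF was -0.76 for miR-196a-5p, -3.33 for miR-196b-5p and -3.16 for miR-10b-5p.

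The imprinted Dlk1-Dio3 region on chromosome 12, whose miRNAs are expressed from the maternal chromosome and whose activity has been linked to the quality of iPSC lines, held miRNAs that rose and miRNAs that fell. Of 98 tested miRNAs of the region, 47 were higher (48%, against 48.6% of all tested), 35 lower (35.7%, against 39.2%) and 16 did not pass, shares near the background, with a median difference of 0.46, equal to that of all tested miRNAs to the second decimal. Under all 4 scalings 46 were higher and 22 lower. As a whole the region took 11.3, 10.8 and 10.6% of the miRNA reads in the MEF libraries and 15.5 and 15.7% in the iPSC libraries. miR-379-5p, the first hairpin of the large cluster, stood at 42718, 34315 and 38039 CPM in MEFs and 5442 and 3444 in iPSCs, a difference of -4.45 ± 0.23 (SE), adjusted p = 5.7e-09, and miR-381-3p stood at 5006, 3879 and 3379 CPM in MEFs and 59.1 and 22.7 in iPSCs, a difference of -8.09 ± 0.32 (SE), adjusted p = 6.0e-10. Other abundant miRNAs of the region fell less. miR-134-5p stood at 9025, 8219.9 and 7769 CPM in MEFs and 8353 and 7945 in iPSCs and miR-541-5p at 19519.7, 27894 and 22893 CPM in MEFs and 13306 and 14893 in iPSCs, with differences of -1.34 and -2.03. With total reads that of miR-134-5p was -0.03 and did not pass (adjusted p = 0.85). Among those that rose, miR-382-5p and miR-433-3p were the most abundant in iPSCs and were named after their values were seen. miR-382-5p stood at 2539.8, 2622 and 3019.9 CPM in MEFs and 10740.0 and 10979.8 in iPSCs, a difference of 0.69 (ESC minus MEF -1.0), and miR-433-3p at 112, 167 and 168 CPM in MEFs and 10843 and 10829.5 in iPSCs, a difference of 4.9 (ESC minus MEF -0.10). Of 46 hairpins of the region with both arms tested, 14 had both arms higher, 8 both lower and 9 opposite. ESC minus MEF had a median of -0.94.

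Against NT-ESCs, which derive from the same MEFs, iPSCs had more of the region. The counts of this comparison were added after its values were seen, and it shares the iPSC libraries with iPSC minus MEF. In that comparison 188 of 732 miRNAs (25.7%) passed, 96 higher in iPSCs (13.1%) and 92 lower (12.6%). Of the 98 miRNAs of the region, 96 stood higher in iPSCs and 54 passed, all higher, with a median difference of 0.95 against 0.10 over all tested. The region took 15.6% of iPSC reads and 6.0% of NT-ESC reads, beside 10.9% in MEFs and 11.2% in ESCs. miR-134-5p was higher in iPSCs than in NT-ESCs by 1.58 (adjusted p = 0.00035), miR-541-5p by 1.02 (adjusted p = 0.0047) and miR-379-5p by 0.97 (adjusted p = 0.017). Each of the 2 groups is 1 line, so the difference is one between these lines. The miRNAs of the region come from shared transcripts and are not independent.

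Of the 14 tested miRNAs of the miR-290 cluster 2 passed between iPSCs and NT-ESCs, both lower in iPSCs, with a median of -0.45. That count is near the 12.6% of all tested that were lower, and the cluster took 18.6% of iPSC reads and 19.6% of NT-ESC reads. Hox cluster miRNAs were lower in iPSCs than in NT-ESCs for 6 of 11, with a median of -1.35, and 6 of 6 miRNAs of miR-199 and miR-214 were lower, with a median of -1.8. miR-199a-3p differed by -1.85 (adjusted p = 0.00037). Between iPSCs and ESCs 555 of 732 (75.8%) passed, across the library sets with different arm balance.

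Markers of other cell types were followed for the same libraries. Muscle miRNAs took 12.1, 10.7 and 12.7% of the miRNA reads in the MEF libraries and 0.33 and 0.268% in the iPSC libraries. Most of the MEF share was miR-206-3p, with 107130.0, 88057 and 105107 CPM in MEFs and 141 and 124 in iPSCs, 757-fold lower in iPSCs, a difference of -10.87 ± 0.20 (SE), adjusted p = 2.7e-12 (ESC minus MEF -9.08). miR-1a-3p, of heart and skeletal muscle, stood at 13680.5, 18399 and 21748 CPM in MEFs and 2374 and 1922 in iPSCs, and miR-133a-3p, transcribed with it, at 95.4, 78.8 and 77.2 CPM in MEFs and 4.53 and 5.26 in iPSCs. Of 10 tested muscle miRNAs 8 were lower, 1 did not pass and 1, miR-499-5p, was higher, with 10.1, 7.88 and 7.2 CPM in MEFs and 775 and 623 in iPSCs. Both arms of miR-208a, a marker of heart muscle, had 0 reads in the MEF libraries. The MEF libraries thus held a strong signal of skeletal muscle miRNAs, and its part in the other differences was not tested. The part of RNA from irradiated MEF feeders in the iPSC libraries was not tested either. The level of miR-206-3p in iPSCs was 0.00132 of that in MEFs. Its level in the feeders was not measured, so the ratio sets no bound on their part.

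Of 12 tested blood and endothelial miRNAs 4 were higher (33.3%, against 48.6% of all tested) and 8 lower (66.7%, against 39.2%) in iPSCs, and they took 0.0421, 0.045 and 0.0422% of the miRNA reads in the MEF libraries and 0.0647 and 0.0675% in the iPSC libraries. miR-126-3p, an endothelial marker, stood at 136, 112 and 114 CPM in MEFs and 0.944 and 3.94 in iPSCs, a difference of -7.13 ± 0.49 (SE), adjusted p = 7.3e-08, and miR-142-3p, of blood cells, at 144, 169.9 and 146 CPM in MEFs and 60.3 and 39.1 in iPSCs. Its other arm miR-142-5p went the opposite way, by 1.98. miR-451, of red cells and named after its values were seen, stood at a mean of 1.45 and 7.33 CPM. Of 11 tested neural miRNAs 5 were higher (45.5%) and 6 lower (54.5%), the former near the share over all tested. miR-124-3p, the defining neuronal miRNA, stood at 10.7, 7.75 and 13.4 CPM in MEFs and 1299 and 1231 in iPSCs, and miR-9-5p at 1534, 1328 and 1255 CPM in MEFs and 121 and 93.3 in iPSCs, with differences of 5.61 and -5.0, in opposite directions. miR-128-3p, enriched in brain, stood at 72.3, 69.5 and 75.9 CPM in MEFs and 2222 and 2626 in iPSCs. miR-137-3p had 600, 546 and 487 reads in MEFs and 1 and 5 in iPSCs, a difference of -8.16 ± 0.51 (SE), adjusted p = 3.2e-08. In NT-ESCs miR-124-3p had a mean of 1627 and in ESCs of 79 CPM. miR-122-5p, the liver miRNA, stood at 43.7, 37.1 and 43.6 CPM in MEFs and 249 and 225 in iPSCs.

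Also named by size or abundance were miR-483-5p, from an intron of the imprinted growth factor gene Igf2, with 401, 917 and 834 CPM in MEFs and 11 and 7.72 in iPSCs, a difference of -7.48 ± 0.38 (SE), adjusted p = 5.5e-09 (ESC minus MEF -6.11), and miR-378-3p, from the gene of the metabolic coactivator PGC-1β, with 26680.1, 28162 and 28900.5 CPM in MEFs and 2144 and 1674 in iPSCs, a difference of -5.19 ± 0.18 (SE), adjusted p = 2.6e-10 (ESC minus MEF -1.39).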

How the data were processed

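Small RNAs of 18 to 30 nt were sequenced in 12 libraries. Per the labels and the study's methods, the authors removed adaptors and low-quality reads, annotated miRNAs, normalized counts with DESeq and deposited 1 table of variance stabilized values, close to log2 counts, for 1042 miRNAs. The submitters' processing notes name build mm8. The aligner and miRBase release are not given in the sources used here. Inverting the transformation gave whole reads for 100% of 9458 nonzero values (tolerance 0.05 reads). CPM is reads per 1000000 miRNA reads of a library.

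The deposited log2-scale values were fitted with limma 3.58.1 (R 4.3.3) over all 12 libraries in 5 groups, for the 732 miRNAs that reached 10 reads in 2 or more libraries, with Benjamini-Hochberg adjustment over all of them and a threshold of 0.05. Variance is pooled over groups. Arm ratios, log2 of 5p plus 0.5 over 3p plus 0.5 reads, were fitted alike for 229 hairpins with at least 20 reads of the 2 arms together in every library. The code was tested on simulated data.

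Named miRNAs were the 10 largest differences in each direction with no overlap and 100 or more reads throughout the higher group, the 10 most abundant per group, up to 4 per list by abundance, and the 5 hairpins with the largest arm change each way. Exceptions are marked. Members and lists were chosen with earlier results of these data known. Counts for iPSC against NT-ESC by list, both-arm counts, end bases, arm tests in other pairs and arm tests with 10 reads of each arm throughout were added after seeing the data. Alternatives covered scaling, filters, log2 with 1 added, voom, the libraries in the fit and leaving out each library. Intervals and floors cover counting error only, since reads carried no molecular identifiers. The table had 0 columns without a sample.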

Additional observations from a re-analysis of the deposited data

Results flagged for a closer look

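The balance of hairpin arms also differed between iPSCs and ESCs. Of 229 hairpins, 174 passed the threshold for a change of the 5p to 3p ratio between iPSCs and ESCs (limma). In 4 of the 174 an arm had 0 reads in all iPSC and ESC libraries, so that the pseudocount set the change. Of the 108 hairpins with 10 or more reads of each arm in every library, 87 (80.6%) passed. The log2 ratio of iPSCs minus ESCs was 13.02 for miR-381, 9.65 for miR-301a, 7.39 for miR-340 and 6.07 for miR-503, toward the 5p arm, and these 4 had under 10 reads of 1 arm in at least 1 library. Toward the 3p arm it was -9.74 for miR-140, -9.01 for miR-376a, -8.20 for miR-222, -6.83 for miR-376b and -6.66 for miR-29a. The iPSC, NT-ESC and NT-iPSC libraries stand on one side of this difference and the MEF and ESC libraries on the other, and library set and cell line cannot be told apart. The cause was not tested.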

How the results depend on the processing

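Calls between iPSCs and MEFs ranged from 590 to 637 when 1 library was left out, with 322 to 349 higher and 268 to 288 lower, against 643, 356 and 287 with all. Requiring 100 reads throughout a group left 469 tested miRNAs, of which 236 were called higher and 196 lower; fewer were tested. The other alternatives for levels stayed within 1.5 times of each count, and called arm changes ranged from 163 to 175 when 1 library was left out. With 10 reads of each arm required in every library, an alternative added after seeing the data, 86 of 108 hairpins were called, 33 toward 5p and 53 toward 3p; fewer were tested. With total miRNA reads as library size, the sign of 6 of the 107 differences named by rule turned: miR-106b-5p to 0.22, miR-182-5p to 1.31, miR-199a-3p to 0.24, miR-199b-3p to 0.28, miR-22-3p to 0.37 and miR-31-5p to 0.60. Of the miRNAs named after their values were seen, let-7e-5p (0.03), let-7i-5p (0.31) and miR-141-3p (0.43) turned as well. This scaling shifts differences up by 1.31 by construction, less for miRNAs with few reads. It left 92 of the 107 in direction and call, while 8 kept their direction and no longer passed and 1 kept it and newly passed. Of the 6 that turned, miR-106b-5p, miR-199a-3p and miR-199b-3p did not pass, and the others passed as higher. miR-182-5p, near 0 and not called, was at 0.34 with TMM-type scaling and from -0.082 to 0.081 with 1 library left out, positive without MEF 13 or iPSC 62. The share of miR-199 and miR-214, which overlapped between the groups, differed by -0.13 to 0.20 percentage points with 1 library left out, reversed without MEF 14 (-0.027), MEF 15 or iPSC 62 (-0.047). No paired analysis was possible because the groups share no replicate numbers. Depth limits miRNAs with few reads, of which 132 were not tested. Each group is 1 line, and the fit assumes that both iPSC libraries vary like the other groups.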
